A study of Mus musculus with 28 samples.

Results

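The Dlx genes of the mouse encode 6 homeodomain transcription factors, and their chromatin was described in neural stem cells with and without the chromatin protein Smchd1. The members were Dlx1, Dlx2, Dlx3, Dlx4, Dlx5 and Dlx6, taken by name, which makes 6 of the 21887 protein-coding genes annotated on assembled chromosomes. The genes lie in 3 neighbouring pairs, and a peak summit was counted for a gene when it lay inside the gene or within 10 kb of it, and for a pair when it lay inside or within 10 kb of either gene or between them.

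In the Dlx family the genes of a pair face each other and are transcribed toward each other, so that transcription starts at the outer ends of each pair. Dlx1 and Dlx2 drive the development of inhibitory (GABA) neurons from the ventral forebrain, and Dlx5 and Dlx6 act there after them and also give the lower jaw its identity. Dlx3 is best known from skin, hair, tooth, bone and placenta. Outside their own tissues such genes are commonly held silent by Polycomb complexes, which place H3K27me3, whereas H3K4me3 marks promoters that are active or poised.

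Neural stem cells were grown from E14.5 brains of male C57BL/6 x FVB/N mice, either carrying the MommeD1 allele of Smchd1 on both chromosomes (null cells) or wild type for Smchd1. Chromatin immunoprecipitation covered H3K27me3 and H3K4me3 (2 libraries per genotype and mark), Smchd1 (2 per genotype) and the insulator protein Ctcf (2 libraries of null cells, 2 of wild-type cells carrying a hairpin that silences nothing, called non-silencing, and 2 of untransduced wild-type cells). The control of all Ctcf lists was Ctcf immunoprecipitation from wild-type cells with a hairpin against Ctcf (1 library for each of 2 hairpins), which the labels call Ctcf null although hairpins reduce a gene product without deleting the gene. Methylated DNA was enriched through its binding to MBD2, a protein that recognises methylated CG (MBD, 3 libraries per genotype), and 1 whole cell extract per genotype served as the control of the histone marks and of MBD. Smchd1 summits were called in wild-type cells against Smchd1 immunoprecipitation in null cells, so that the null cells have no Smchd1 list of their own.

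The authors' processed data are 11 lists of peak summits. Replicate libraries were combined before calling, so a list is 1 measurement per group without replicate error, a difference between groups could not be tested, and the depth behind a list is unknown. Lists differed in length: 77 null and 732 wild-type H3K27me3 summits, 24201 and 23449 for H3K4me3, and, for Ctcf, 11920 null, 20483 non-silencing and 8292 untransduced summits on assembled chromosomes. The MBD lists named for D1 (the MommeD1 allele) and for WT held 126631 and 156188 summits. The MBD labels contradict each other, because samples titled null cite the WT-named list and the reverse, so these lists are given by their names with no genotype. Scores are the authors' −log10 values, of p or q, and rank summits only within a list. As a check of the cell type, H3K4me3 lay within 2 kb of an annotated end of 9 of 10 neural stem cell markers in both the null and the wild-type list (Sox2, Nes, Vim, Fabp7, Hes1, Hes5, Prom1, Sox1 and Notch1, but not Msi1), against 58.0% and 58.3% of all coding genes. Neither list had such a summit at any of 4 astrocyte markers (Gfap, Aqp4, Aldh1l1, S100b), while 4 of 7 neuron markers, 1 of 4 for oligodendrocytes, endothelium and mesenchyme each and 2 of 4 for blood had one in both; of 4 epithelial markers 2 had one in null and 1 in wild type.

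The promoters of the best-marked pair are shown because summits of both histone marks lie beside them. The sequences are RefSeq's on GRCm38.p6, the assembly called mm10, run from 250 bases before to 50 after the annotated start, and have each CG in capitals, the dinucleotide at which mouse DNA is methylated. Of the 6 members, Dlx1 and Dlx2 matched the RefSeq table. The Dlx1 stretch (chr2:71529195-71529494, plus strand) and the Dlx2 stretch (chr2:71546705-71547004, minus strand) read:
Dlx1: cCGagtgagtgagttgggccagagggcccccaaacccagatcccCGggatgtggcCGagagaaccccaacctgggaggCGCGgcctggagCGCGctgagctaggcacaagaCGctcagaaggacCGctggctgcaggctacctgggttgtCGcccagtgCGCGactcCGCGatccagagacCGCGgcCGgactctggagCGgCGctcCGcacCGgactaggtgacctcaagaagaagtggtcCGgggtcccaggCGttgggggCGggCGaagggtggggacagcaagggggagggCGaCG
Dlx2: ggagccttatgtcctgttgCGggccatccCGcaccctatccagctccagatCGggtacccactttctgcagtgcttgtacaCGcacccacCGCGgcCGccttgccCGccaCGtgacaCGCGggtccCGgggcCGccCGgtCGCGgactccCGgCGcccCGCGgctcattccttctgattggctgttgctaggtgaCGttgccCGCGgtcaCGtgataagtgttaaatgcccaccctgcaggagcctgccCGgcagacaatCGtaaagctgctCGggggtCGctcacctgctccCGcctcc

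Both were rich in CG, with 27 in the Dlx1 stretch and 29 in the Dlx2 stretch, more than in 84.5% and 87.1% of the 32851 RefSeq promoters of the same length, whose median was 7. The E-box CACGTG, which reads the same on both strands and holds a CG, occurred 2 times in the Dlx2 stretch and 0 times in that of Dlx1, and 7.15% of all promoters held it. The homeodomain core TAATTA, also the same on both strands, was in neither stretch.

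Dlx6os1, Dlx6os2 and Dlx4os, the other transcripts at the pairs with a sequence in the table, held fewer CG in their promoter stretches. Dlx6os1, the antisense RNA also known as Evf2 that regulates Dlx5 and Dlx6 in the mouse ventral forebrain, has an upstream start between Dlx6 and Dlx5 (chr6:6869484-6869783, minus strand) and a second beyond Dlx6 (chr6:6861634-6861933, minus strand). They are shown because the second lies beside a wild-type H3K27me3 summit, and capitals here mark TAATTA:
Dlx6os1, upstream start: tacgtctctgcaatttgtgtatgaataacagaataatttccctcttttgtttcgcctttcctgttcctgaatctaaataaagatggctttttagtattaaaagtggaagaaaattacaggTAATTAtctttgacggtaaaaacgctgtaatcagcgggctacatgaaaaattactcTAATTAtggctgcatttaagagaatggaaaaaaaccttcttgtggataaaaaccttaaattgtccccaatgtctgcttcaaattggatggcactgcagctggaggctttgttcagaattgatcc
Dlx6os1, second start: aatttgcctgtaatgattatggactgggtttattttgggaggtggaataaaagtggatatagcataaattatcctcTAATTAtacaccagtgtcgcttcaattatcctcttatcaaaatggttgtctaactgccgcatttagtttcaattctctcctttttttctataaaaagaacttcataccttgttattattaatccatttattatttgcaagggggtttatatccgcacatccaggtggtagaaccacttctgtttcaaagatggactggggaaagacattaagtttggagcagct

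These stretches held 5 and 3 CG and 2 and 1 copies of TAATTA, a motif found in 5.29% of all promoters. The stretch of Dlx4os, which starts inside Dlx4, held 11 CG and that of Dlx6os2, inside Dlx6, held 10, both with no TAATTA.

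**Figure D1:**
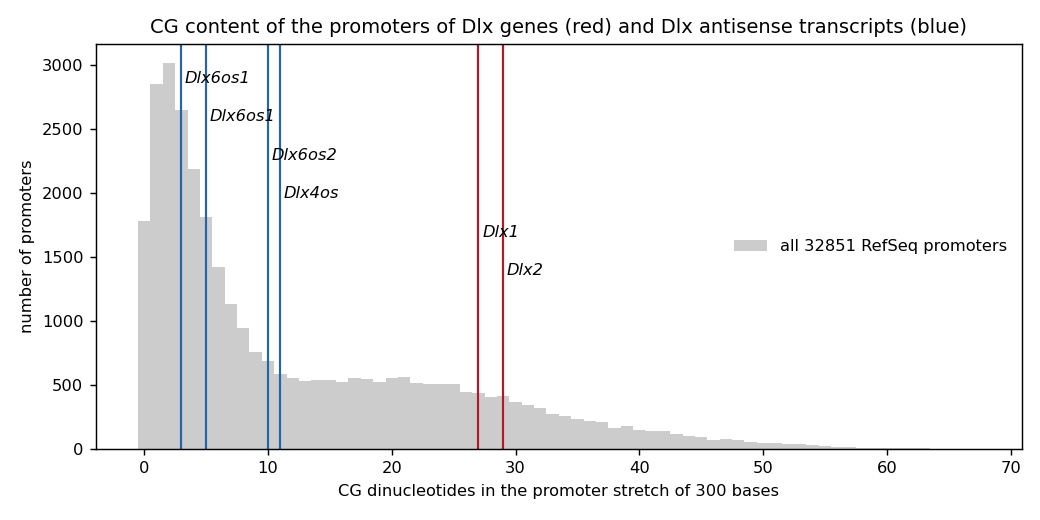
Number of CG dinucleotides (horizontal axis) in promoter stretches of 300 bases, as the number of RefSeq promoters with each count (vertical axis, grey bars). Red lines mark Dlx1 with 27 and Dlx2 with 29, and blue lines mark Dlx6os1 (both starts), Dlx6os2 and Dlx4os with 3 to 11, against a median of 7 over all promoters.

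H3K27me3 was listed at 0 of the 6 Dlx genes in null cells and at 5 in wild-type cells. The null list held 0 summits in the pair windows and the wild-type list held 21, of which 11 lay at Dlx1/Dlx2, 4 at Dlx3/Dlx4 and 6 at Dlx5/Dlx6. By the same rule the null list marked 0.320% of all coding genes and the wild-type list 1.24%. The pattern of these 5 Dlx genes, listed in wild type and absent from the null list, was that of 0.932% of coding genes, and the opposite pattern that of 0.0137%. The null list is short as a whole: of the 271 coding genes with a wild-type summit, 24.7% also had a null one. All 21 wild-type summits of the windows lacked a null summit within 1 kb, and so did 92.8% of the whole wild-type list. With the lists brought to nearly equal length by score (77 null and 54 wild-type summits, ties left out), the pair windows held 0 null and 4 wild-type summits, 3 of them at Dlx1/Dlx2 and 1 at Dlx5/Dlx6.

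Dlx1 had 0 null and 10 wild-type H3K27me3 summits inside or within 10 kb, and Dlx2 had 0 and 7. At least 10 wild-type summits were counted for 0.0640% of coding genes and at least 7 for 0.155%. Windows of paired genes overlap, so a summit between the genes can count for both.

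The 11 wild-type summits of Dlx1/Dlx2 (chromosome 2) ran through the whole pair, from 71528241 just inside the lower end of Dlx1 (gene 71528113 to 71533981), 1204 bp upstream of the transcription start at 71529445, to 71545497 inside Dlx2 (gene 71543408 to 71546754). This span of 17.3 kb held 4 summits inside Dlx1, 5 between the genes and 2 inside Dlx2, with none beyond the outer ends. The highest score, 6.75 at 71539476 in the stretch between the genes, lay above 97.5% of the wild-type list. Summits at 71532792 in Dlx1 and 71538281 between the genes followed with 6.27 each, and the lowest of the pair was 4.12. The highest scores were thus at 1 summit in the 3′ part of Dlx1 and in the middle of the pair. On either side of that summit in Dlx1 lay the lowest scores of the pair, 4.20 and 4.12. The summit near the lower end of Dlx1 scored 4.97.

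Dlx5 had 0 null and 5 wild-type summits and Dlx6 had 0 and 4, numbers reached by 0.297% and 0.411% of coding genes in the wild-type list. In the pair window on chromosome 6, 3 wild-type summits lay between Dlx6 (gene 6863334 to 6867970) and Dlx5 (gene 6877801 to 6882068), 2 inside Dlx5 and 1 beyond Dlx6. The highest score was 5.95 at 6874364 between the genes, above 93.0% of the list, and the lowest was 3.87 at 6861355. The summit at 6861355 lay 328 bp downstream of the second start of Dlx6os1 and 1979 bp from Dlx6. No summit lay inside Dlx6 itself, and a further one with a score of 5.60 lay 12333 bp beyond Dlx6, outside the window.

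The Dlx3/Dlx4 window on chromosome 11 was divided between its genes. Dlx4 (gene 95140447 to 95146294) had 0 null and 4 wild-type summits, 2 inside the gene with scores of 5.60 and 4.51 and 2 beyond its upper end with 5.60 and 4.99. Dlx3 (gene 95120117 to 95125296) had 0 in both lists, and its nearest wild-type summit lay 17.6 kb away, inside Dlx4. It was the only member with no H3K27me3 summit in either list.

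Per 10 kb of window, the wild-type list held 2.85 summits at Dlx1/Dlx2, 0.87 at Dlx3/Dlx4 and 1.55 at Dlx5/Dlx6. These are counts in 1 pooled list and the differences between pairs could not be tested. At a score of at least 5 the pairs held 6, 2 and 2 summits in that order, so Dlx3/Dlx4 and Dlx5/Dlx6 were equal. With neighbours within 500 bp merged they held 8, 4 and 6. Scores are coarse: the 21 summits had 12 distinct values, 4.51 is the score of 252 of the 732 summits in the list and 5.60 that of 100. At the 10 kb limit, 1 summit of Dlx1 lay at exactly 10000 bp and was counted, and the nearest one not counted lay 10277 bp from Dlx2.

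**Figure D2:**
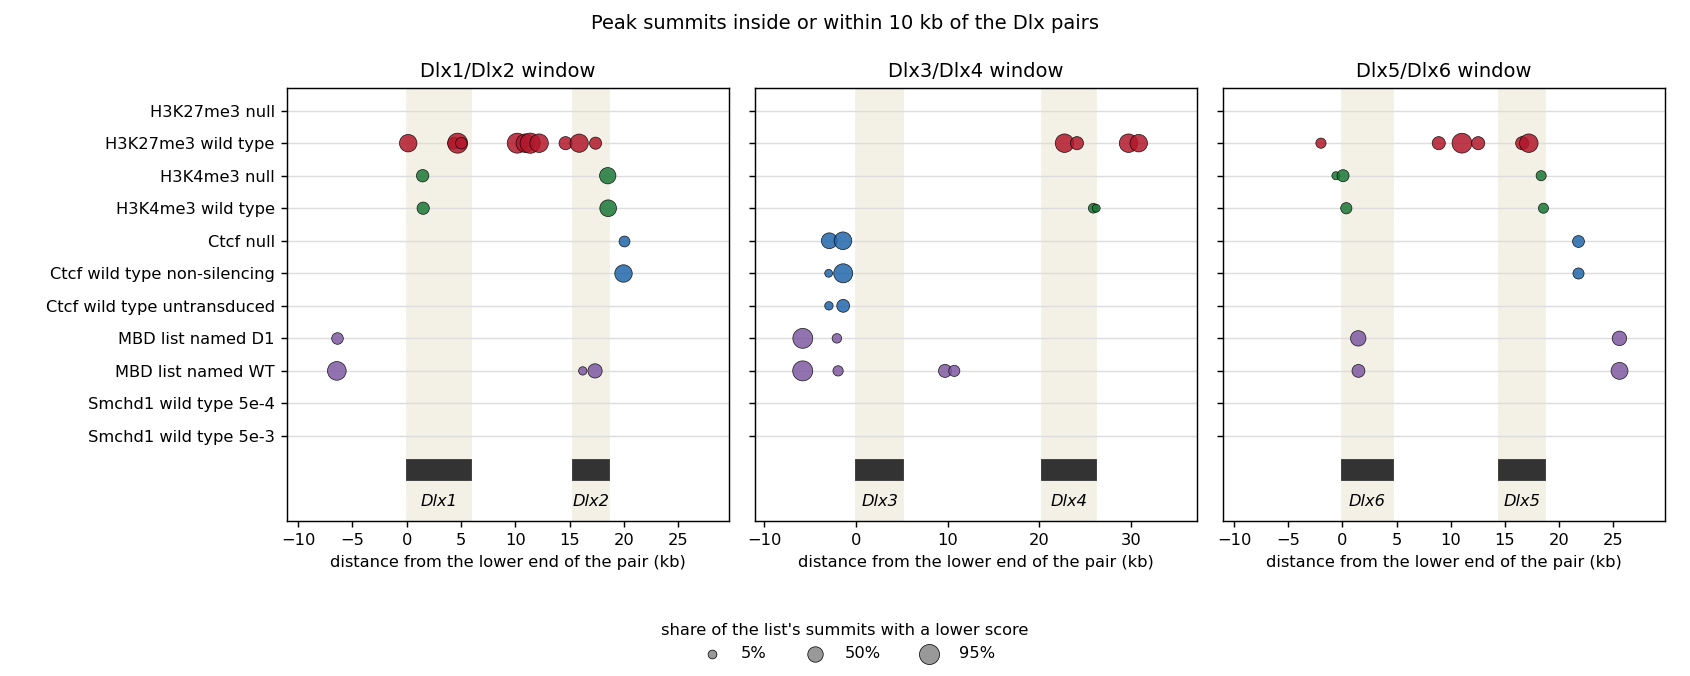
Summits of the 11 lists (rows) in the windows of the 3 Dlx pairs, by distance from the lower end of the pair in kb (horizontal axis). A circle is a summit, its size the share of the list with a lower score, and dark boxes are the genes. Wild-type H3K27me3 summits fill the Dlx1/Dlx2 pair, null H3K27me3 and both Smchd1 rows are empty, and H3K4me3 lies within 2 kb of an outer end wherever it is listed.

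H3K4me3 was listed at 4 Dlx genes in null cells and at 5 in wild-type cells, against 66.8% and 67.1% of all coding genes. Dlx1, Dlx2, Dlx5 and Dlx6 were listed in both genotypes, Dlx4 in wild type only and Dlx3 in neither. Over all coding genes, 0.978% were listed for null cells alone and 1.27% for wild-type cells alone, and 98.1% of those listed in wild type were listed in null as well.

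At Dlx2 the null summit at 71546611 scored 30.49 and the wild-type summit at 71546657 scored 33.68, which put them above 58.1% and 61.6% of their lists. They lay 143 and 97 bp inside the start of Dlx2. Those of Dlx1 scored 11.34 in null at 71529576 and 11.29 in wild type at 71529620, above 26.4% and 25.7% of their lists, and lay 131 and 175 bp downstream of the transcription start at 71529445. The positions of the genotypes differed by 46 bp at Dlx2 and 44 bp at Dlx1. Dlx2 was the only member in the upper part of either H3K4me3 list.

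Dlx5 and Dlx6 had low summits in both lists. The summit at the outer end of Dlx5 scored 6.98 in null and 6.95 in wild type, above 12.3% and 11.9% of the lists, at positions 217 bp apart. Dlx6 had 2 null summits, at 6863389 (score 10.48) and 6862735 (4.33), and 1 wild-type summit at 6863698 (9.03), 309 bp from the nearer null one. The lower null summit stood above 1.91% of its list.

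Dlx4 had 0 null and 2 wild-type H3K4me3 summits, at 95146005 and 95146326 around its outer end. They scored 6.55 and 4.14, above 9.94% and 1.33% of the wild-type list, and the nearest null summit lay 63.9 kb from the gene. The difference between genotypes at Dlx4 therefore rests on low-ranked summits. No H3K4me3 summit lay within 10 kb of Dlx3, the nearest being 43.6 kb away in null and 20.7 kb in wild type.

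**Figure D3:**
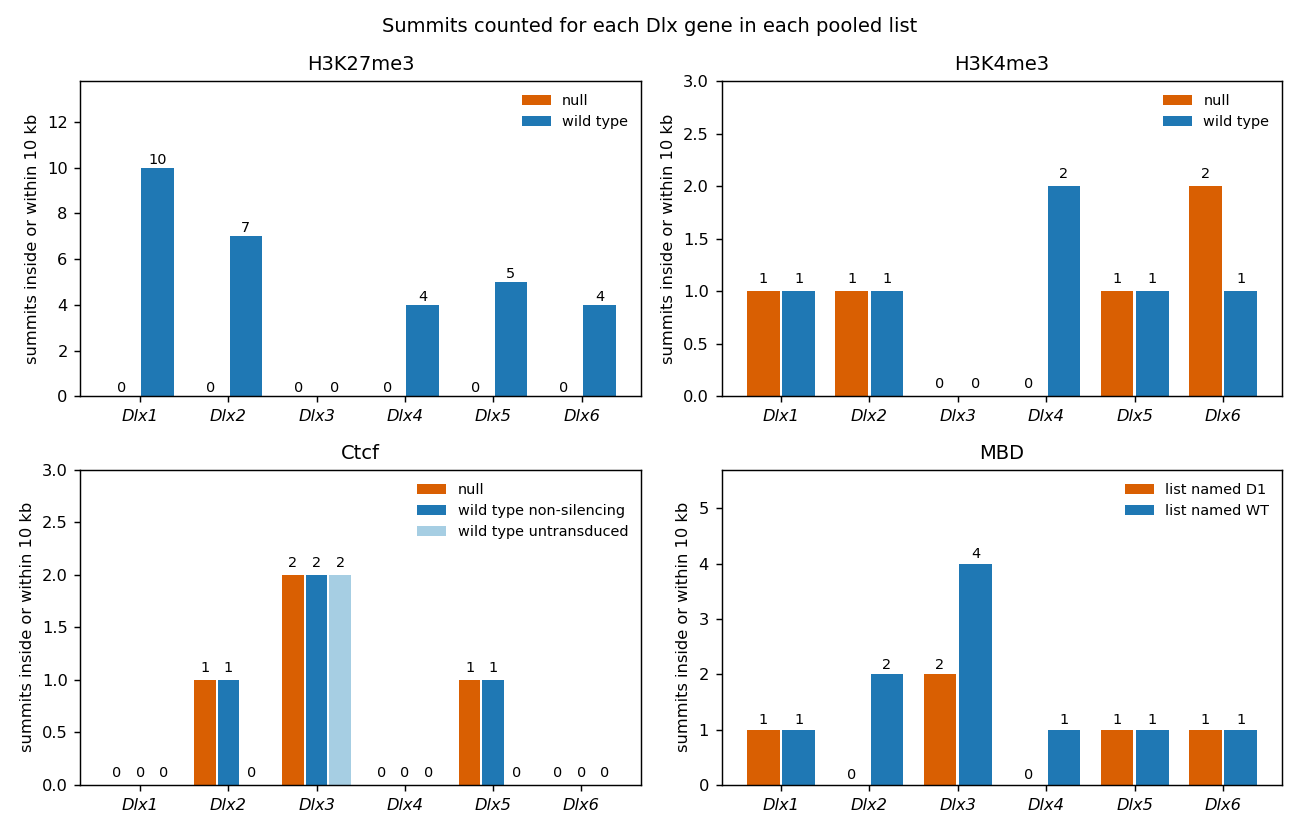
Summits inside or within 10 kb of each Dlx gene (vertical axis) in each pooled list, by mark. Dlx1 has 0 null and 10 wild-type H3K27me3 summits, H3K4me3 differs in presence only at Dlx4, and Dlx3 has most Ctcf and MBD summits. Lists are pooled, so there are no error bars.

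The same 5 genes carried both marks in wild-type cells, against 0.754% of coding genes with both. That share is low because few coding genes had H3K27me3. Of the 271 with a wild-type H3K27me3 summit, 165 also had H3K4me3, which was listed at 67.1% of all coding genes. Carrying both marks is therefore not particular to the Dlx genes. Of the 21 wild-type H3K27me3 summits, 18 lay between the outer ends of a pair. H3K4me3 was farther out than all H3K27me3 summits at Dlx2 and Dlx5, whereas at Dlx1, Dlx4 and Dlx6 at least 1 H3K27me3 summit lay farther out than the wild-type H3K4me3. Of these 21, 0 lay within 1 kb of H3K4me3 in the same cells. The nearest pair of summits was 1160 bp apart, at Dlx2, and the distances ran to 8524 bp with a median of 3511 bp. Over the whole wild-type list of 732 the median was 12442 bp and 11.7% lay within 1 kb, and over the 77 null summits it was 10465 bp and 5.19%. Most summits of both lists thus also lay farther than 1 kb away. The 21 were picked by nearness to genes, 5 of which carry H3K4me3, which by itself keeps their distances short. Their shorter median is therefore not a result about the Dlx genes. Both marks of a genotype were called against the same whole cell extract, and 1 summit stands for a peak whose width is not in the lists, so overlap of broad H3K27me3 peaks with H3K4me3 was not tested.

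**Figure D4:**
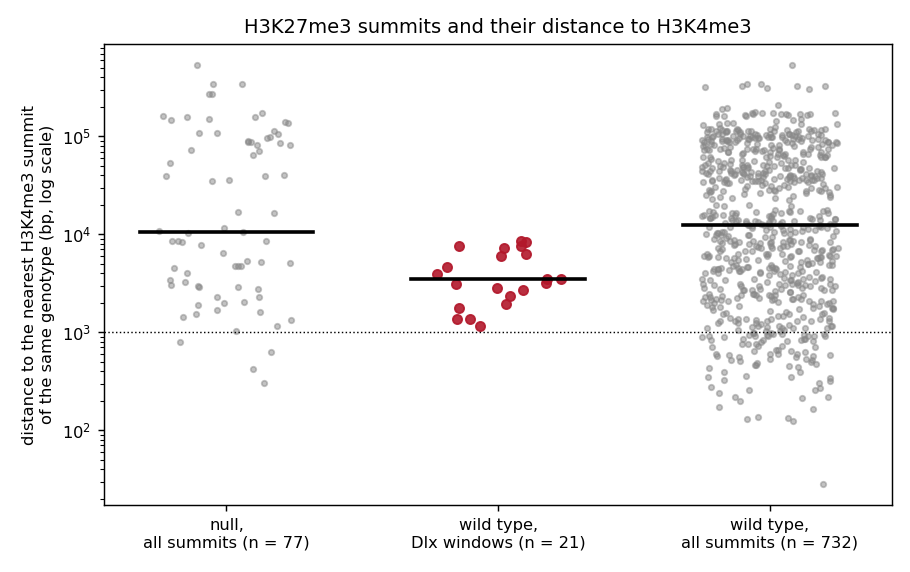
Distance in bp, on a log scale, from each H3K27me3 summit to the nearest H3K4me3 summit of the same genotype. Points are summits of the null list (n = 77). Next are those of the wild-type list in the Dlx windows (n = 21) and as a whole (n = 732, the 21 included). Bars are medians of 10465, 3511 and 12442 bp. The dotted line is 1 kb, above which all 21 Dlx summits and most of both whole lists lie. The Dlx summits were picked by nearness to genes and the whole lists were not.

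Smchd1 itself was not listed at any member. Neither the list called at a threshold of 5e-4 nor the one at 5e-3 held a summit in the 3 windows, and 1.11% and 3.07% of coding genes had one. From Dlx2 the nearest summit of the 5e-4 list lay 3115.2 kb away, from Dlx4 267.5 kb and from Dlx6 3415.7 kb. In the 5e-3 list the nearest to Dlx5 lay 73.8 kb away at 6955872. With so few coding genes listed, the lack of a summit at the members is near the share of all genes. Binding under the calling thresholds is not visible in these lists. Any link between Smchd1 binding and the H3K27me3 difference was not tested.

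Ctcf, which binds at insulators and at the borders of chromatin loops, had 0 summits between the outer ends of any pair in every list. How often other spans of this length hold no Ctcf summit was not counted, so this 0 is not a result about the pairs. The lists share their control libraries, so their values are set side by side. Members with a summit numbered 3 in null, 3 in non-silencing and 1 in untransduced cells, against 37.2%, 50.6% and 29.5% of coding genes.

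Dlx3 had 2 Ctcf summits in each list, within 3 kb of its outer end. The nearer one, 1.4 kb away, scored 10.40 in null at 95118687, 16.09 in non-silencing at 95118716 and 7.27 in untransduced cells at 95118716, above 70.9%, 84.6% and 30.0% of the lists. The farther one scored 8.72 in null, 4.08 in non-silencing and 4.34 in untransduced cells, above 53.3%, 0.893% and 3.52% of the lists. Of all coding genes, 22.6% had Ctcf in all 3 lists. The farther summit thus stood in the middle of the null list and at the bottom of both wild-type lists.

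Dlx2 and Dlx5 had 1 Ctcf summit each in null and non-silencing cells and 0 in untransduced cells, a pattern of 11.0% of coding genes. Among equal numbers of highest-scoring summits of the 3 lists this pattern was absent at both genes: the Dlx1/Dlx2 window held 0 null and 1 non-silencing summit, and the Dlx5/Dlx6 window 0 null and 0 non-silencing summits. That of Dlx2 lay 1316 bp beyond its start in null (71548070, score 5.56) and 1294 bp in non-silencing cells (71548048, 12.54). That of Dlx5 lay 3042 and 3051 bp beyond its outer end (6885110 with 6.44 in null, 6885119 with 7.10 in non-silencing cells). In the untransduced list, the shortest of them, the nearest summits were 409.1 kb from Dlx2 and 851.2 kb from Dlx5. Dlx1, Dlx4 and Dlx6 had no Ctcf summit in any list.

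**Figure D5:**
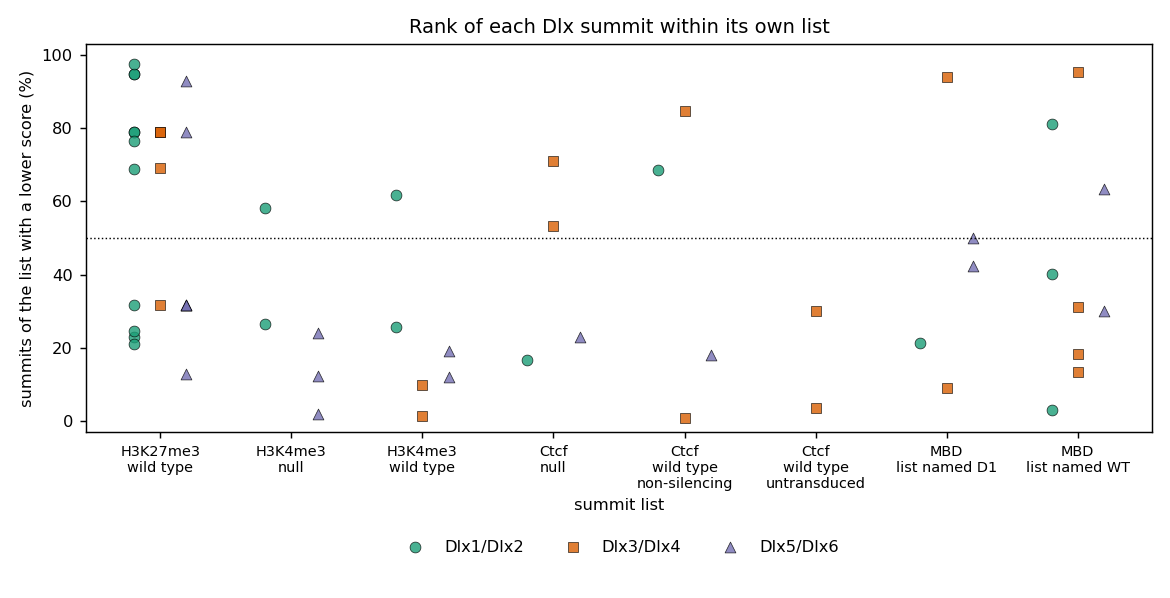
Share of each list's summits with a lower score (vertical axis, %) for every summit in the windows of the 3 pairs, by list (horizontal axis). Each point is a summit, and the dotted line is the middle of the list. The Dlx1/Dlx2 H3K27me3 summits reach 97.5%, while H3K4me3 at Dlx3/Dlx4 and Dlx5/Dlx6 stays at 24.1% or below.

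Methylated DNA was listed at 4 members in the D1-named list and at 6 in the WT-named list, against 79.1% and 82.1% of coding genes, so that presence of a summit says little here. The windows held 5 D1-named and 9 WT-named summits. All 5 D1-named summits had a WT-named one within 1 kb, as 98.2% of that list did, while 4 of the 9 WT-named summits had no D1-named counterpart, against 17.5% of that list.

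The 4 without a counterpart lay in the inner parts of the pairs. Dlx2 had 0 D1-named summits and 2 WT-named ones inside the gene, at 71544310 (score 7.32) and 71545439 (16.46), which lay above 3.03% and 40.2% of the WT-named list. The second was 58 bp and the first 329 bp from a wild-type H3K27me3 summit. Neighbouring H3K27me3 summits of this pair lay a median of 1035.5 bp apart, so short distances are common there. How near other positions of the pair lie was not counted, and the WT-named list has no genotype here. Between Dlx3 and Dlx4 the WT-named list held summits at 95129827 (13.73) and 95130832 (10.69), above 31.2% and 18.4% of it. Dlx2 and Dlx4 were the members with a WT-named summit only, a state of 3.29% of coding genes, while 0.274% had a D1-named one only. For Dlx4 this rests on a summit 9615 bp from the gene, which was not among the highest-scoring 123738 summits to which the WT-named list was shortened to match the D1-named list. In that comparison 4 members had a D1-named and 5 a WT-named summit, and the Dlx3/Dlx4 window held 2 D1-named and 2 WT-named summits.

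Shared summits were mostly outside the pairs. Upstream of Dlx3 the strongest of all scored 57.17 in the D1-named and 70.39 in the WT-named list, above 94.1% and 95.4% of them, at positions 6 bp apart and 5.8 kb from the gene. A lower one there (8.96 and 9.53) lay 563 bp from the nearer Ctcf summit of non-silencing cells, measured from the WT-named position. Beside Dlx1, inside its neighbour Metap1d (an aminopeptidase gene), a summit scored 11.01 in the D1-named list and 43.56 in the WT-named list, above 21.3% and 81.2% of them, at positions 28 bp apart. Dlx6 held a summit inside the gene in both lists, at 6864791 (18.35) and 6864815 (13.16), and one beyond Dlx5 scored 16.22 and 28.04.

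Genes of the same developmental programmes, from lists chosen with earlier results of these data known, were counted by the same rule. Of 25 forebrain GABA genes, 1 had an H3K27me3 summit in null and 6 in wild type, against 0.320% and 1.24% of all coding genes. Lhx6 and Sp9, transcription factors of interneurons, had 0 null and 4 and 2 wild-type summits, the vesicular GABA transporter gene Slc32a1 had 0 and 3, and Nkx2-1 and Sp8 had 0 and 1 each. Lhx8 was the one listed in both, with 1 null and 2 wild-type summits. H3K4me3 marked 22 of the 25 in null and 23 in wild type, against 66.8% and 67.1% of all coding genes. The median number of H3K27me3 summits per gene was 0 in both genotypes, as over all coding genes.

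Of 25 partners in jaw, limb, bone, ear and skin, 9 had an H3K27me3 summit in null and 13 in wild type, against the same 0.320% and 1.24% of coding genes. Among those listed in both were Hand2 (1 null and 10 wild-type summits), Hmx2 and Hmx3 (neighbours, each 2 and 10), Tfap2a (2 and 7), Msx1 (1 and 6), Alx4 (1 and 3) and Gsc (1 and 2). Barx1 (0 and 11), Hand1 (0 and 3) and Msx2 (0 and 1) were among those listed in wild type only, as the 5 Dlx genes were. H3K4me3 marked 15 of the 25 in null and 17 in wild type, shares near the 66.8% and 67.1% of all coding genes. Of 15 other brain region factors, 0 had a null H3K27me3 summit and 8 (53.3%) a wild-type one, namely Pax3 (6), Otx2 (5), Tbr1 (4), Nkx6-1 and Pax7 (3 each), Emx1 and Neurog2 (2 each) and Neurod1 (1). H3K4me3 marked 13 of the 15 in null and 12 in wild type, or 86.7% and 80.0%, against the same 66.8% and 67.1%. In these last lists the median number of H3K27me3 summits per gene was 0 in null and 1 in wild type, against 0 in both over all coding genes. Among the list genes with 10 or more wild-type summits, as Dlx1 had, Hand2, Hmx2 and Hmx3 had a null summit and Barx1 had none.

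At 5e-4, 0 Dlx genes and 6 genes of these lists had a Smchd1 summit, among them Isl1 and Nkx2-1 (1 each) of the GABA list, Tfap2a (3) and Msx1 (1) of the jaw list, and Nkx6-1 (3). That is 3 of 25, 2 of 25 and 1 of 15, against 1.11% of all coding genes, so the 0 of the Dlx genes is near the share of all genes. Isl1 had no H3K27me3 summit.

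Likeness of summit counts was measured over 10 lists (the 5e-3 Smchd1 list left out) as the sum of absolute differences of log2(count + 1), so 0 would be identical counts. Among the genes outside the pair windows nearest to Dlx1 were Lhx6 (1.14) and Hoxa2 (2.00), and those nearest to Dlx6 were Lhx6 (0.58), Psmd14 (0.58) and Foxd4 (1.91). Nearest to Dlx2 were Gdf6 (2.26), Foxl2 and Tal1 (2.58 each), to Dlx5 Gdf6 (1.43), Lin28b (1.58) and Adra2a (2.17), and to Dlx4 Tbx1 and Hmx1 (1.91 each) and Gm1979 (2.32). Dlx3 had the closest matches, Ccn5 and Alox12b (0.42 each) and Adora3 (0.58), which like it had Ctcf and MBD summits but no histone mark. No coding gene had counts identical to those of any member.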

How the data were processed

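Per the submitters' processing notes, the tools were CASAVA 1.4 and MACS2 version 2, a peak caller, on mm10. No source used here names the aligner. The authors deposited, for each group, a list of 1 bp summits with a −log10 score, whether of p or of q is not stated in the sources used. Replicates were combined and set against the controls named in the labels, so depth and control limit which summits are listed, and the depth per library is unknown.

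Positions, counts, ranks and nearest distances came from scripts in Python 3.11.15 (pandas 2.3.3, numpy 2.4.6), and figures from matplotlib 3.10.9. Summits on unplaced contigs were left out. Genes came from RefSeq's table of GRCm38.p6, the assembly of mm10, by annotated ends. A summit was shared with another list when that list had one within 1 kb. Counting and distances were checked on simulated data. No test was run, because pooled lists have no replicates. Named are the members, coding genes in the pair windows, genes of the fixed lists with a Smchd1 (5e-4) or H3K27me3 summit, and the 3 genes nearest in summit counts to each member. Some genes that this rule names are not reported here. The members and lists were chosen with earlier results of these data known. Alternatives were other windows, a minimum score, merged neighbours, equal list lengths and other sharing distances.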

Additional observations from a re-analysis of the deposited data

How the results depend on the processing

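Null H3K27me3 and Smchd1 summits at the members stayed at 0 within 20 kb, the only setting that could add summits within a list. The Smchd1 list called at the looser threshold also held 0. Smaller windows, a minimum score, merged neighbours and equal list lengths could not raise a count of 0, so they do not test this absence. Null minus wild-type H3K27me3 summits, -21 as reported, were -10 at a score of at least 5 and -4 with equal numbers of highest-scoring summits, where 54 wild-type summits remained because 100 tied at a score of 5.60 were left out. For H3K4me3 this difference, -1 as reported, was 0 with neighbours within 500 bp merged and -2 with equal numbers, and the null H3K4me3 summits with a wild-type one, 5 within 1 kb, were 3 within 250 bp. Ctcf null minus untransduced summits, 2 as reported, were 1 within 2 kb and 0 with equal numbers. Ctcf null minus non-silencing summits, 0 as reported, were -1 within 20 kb and 1 at a score of at least 5. This difference was 2 with only the null and non-silencing lists brought to equal numbers. Members with Ctcf, 3 in null and 3 in non-silencing cells, were 5 and 6 within 20 kb. With all 3 Ctcf lists at equal numbers, members with Ctcf were 1 in null, where the Dlx2 and Dlx5 calls were lost. In that setting they were 2 in non-silencing cells, where the call of Dlx5 was lost. Members with MBD, 4 in the D1-named and 6 in the WT-named list, were 1 and 3 within 2 kb, 2 and 3 within 5 kb, and 4 and 5 with equal numbers, where Dlx4 was lost from the WT-named list. Of 192 recomputed counts per pair and list, 33 moved by over 1.5 times, 29 of them down. Apart from the 20 kb window, the settings could not raise a count, so most moves were bound to be down. Counts of 0 could move only at 20 kb. The cause of each move was not tested. Leaving out single libraries was not run, as the lists are pooled. No paired analysis was possible because each list is called on pooled libraries. Scores tie often, and unknown depth limits what an absent summit shows.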
